A study of Mus musculus with 8 samples.

Results

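The small leucine-rich proteoglycans are secreted proteins of the connective tissue matrix, and 9 of their genes, DCN, LUM, BGN, FMOD, PRELP, OGN, ASPN, KERA and PODN, were followed here among 18132 rows of an expression array. The genes were taken by family membership and not by their values. All 9 had a row on the array, and 8 reached a group mean of 3 on the log2 scale in at least 1 group, which is the level that the methods give for background. KERA did not and was not tested. The cells were primary mouse embryonic fibroblasts (MEFs) on a C57BL/6J background, isolated at embryonic day 13.5. *Btg1*-/- MEFs kept for 16 hours in medium without glutamine ("starved"), untreated *Btg1*-/- MEFs, starved wild-type (WT) MEFs and untreated WT MEFs were measured on 2 arrays each. All groups were grown as adherent cultures, and the methods give dialyzed serum for the medium without glutamine and ordinary heat-inactivated serum for normal medium, so that the lack of glutamine and the change of serum cannot be told apart. The labels call the 2 arrays of a group biological duplicates, and the number of embryos behind them was not found in the labels or methods.

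The core proteins of this family fold into a curved stack of leucine-rich repeats, bind fibrillar collagens with it and carry chains of chondroitin, dermatan or keratan sulfate, or none. They set how collagen fibrils grow in width and fuse, and several of them hold growth factors such as TGF-β in the matrix. Decorin (DCN), biglycan (BGN) and asporin (ASPN) form class I, fibromodulin (FMOD), lumican (LUM), PRELP and keratocan (KERA) class II, osteoglycin (OGN) belongs to class III, and podocan (PODN) to a class outside these. BTG1 is a cofactor that binds transcription factors and other regulators and is known for restraining cell growth, and the study asked how its loss alters the response of fibroblasts to a shortage of amino acids.

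The libraries set some limits on what follows. The *Btg1* row was at 10.40 and 10.45 in starved *Btg1*-/- cells, 9.36 and 9.16 in untreated *Btg1*-/- cells, 12.40 and 12.40 in starved WT cells and 11.17 and 11.23 in untreated WT cells, so that it was lower in the knockout without falling to background. Where its probe lies relative to the deleted part was not found in the labels or methods. Of 7 fibroblast marker genes with a row, the medians were 10.46 to 11.96 across the arrays, and 6 of the genes were above 6.6 on all 8 arrays, while *Postn* lay between 3.29 and 5.46. Of 12 macrophage markers the median lay at 7.71 and 6.12 in starved *Btg1*-/- cells, 8.19 and 6.36 in untreated *Btg1*-/- cells, 5.77 and 5.15 in starved WT cells, and 5.41 and 5.32 in untreated WT cells, highest in replicate 1 of the *Btg1*-/- cells. *Fcer1g* went against the other markers, with 2.13 and 2.35 in that culture and 7.26 to 7.69 on the other 6 arrays. Medians of endothelial, epithelial, chondrocyte, tendon, osteoblast and skeletal muscle markers lay between 2.35 and 5.61. The Y-linked transcript *Eif2s3y* was at 9.49 and 9.81 in WT replicate 2 and at 3.25 or lower on the other 6 arrays. *Xist*, which is made from the inactive X chromosome, was at 3.48 and 2.87 in WT replicate 2 and between 6.91 and 7.98 on the other 6 arrays. By these transcripts WT replicate 2 was male and the other arrays, with all *Btg1*-/- arrays, were female. Sex was thus not balanced between the genotypes, and its part in the results was not tested. In bulk cultures, fewer cells of a type and less RNA per cell cannot be told apart.

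Glutamine starvation went with lower RNA of several family members. In starved against untreated WT cells PRELP, OGN, LUM and ASPN were lower, and in starved against untreated *Btg1*-/- cells LUM was lower, while BGN stayed within narrow limits in both genotypes. In all, 1 of 8 members tested was called lower in starved *Btg1*-/- cells and 4 of 8 in starved WT cells. A call here means a limma p under 0.05 after adjustment over 12691 rows. Over all rows tested, 7.24% were called lower in *Btg1*-/- cells and 11.6% in WT cells. The median log2 difference of the 8 members was -0.99 in *Btg1*-/- cells and -1.45 in WT cells, where the medians over all rows were 0.03 and 0.03. No member was called higher, where 8.44% of all rows were in *Btg1*-/- cells and 13.1% in WT cells.

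**Figure D1:**
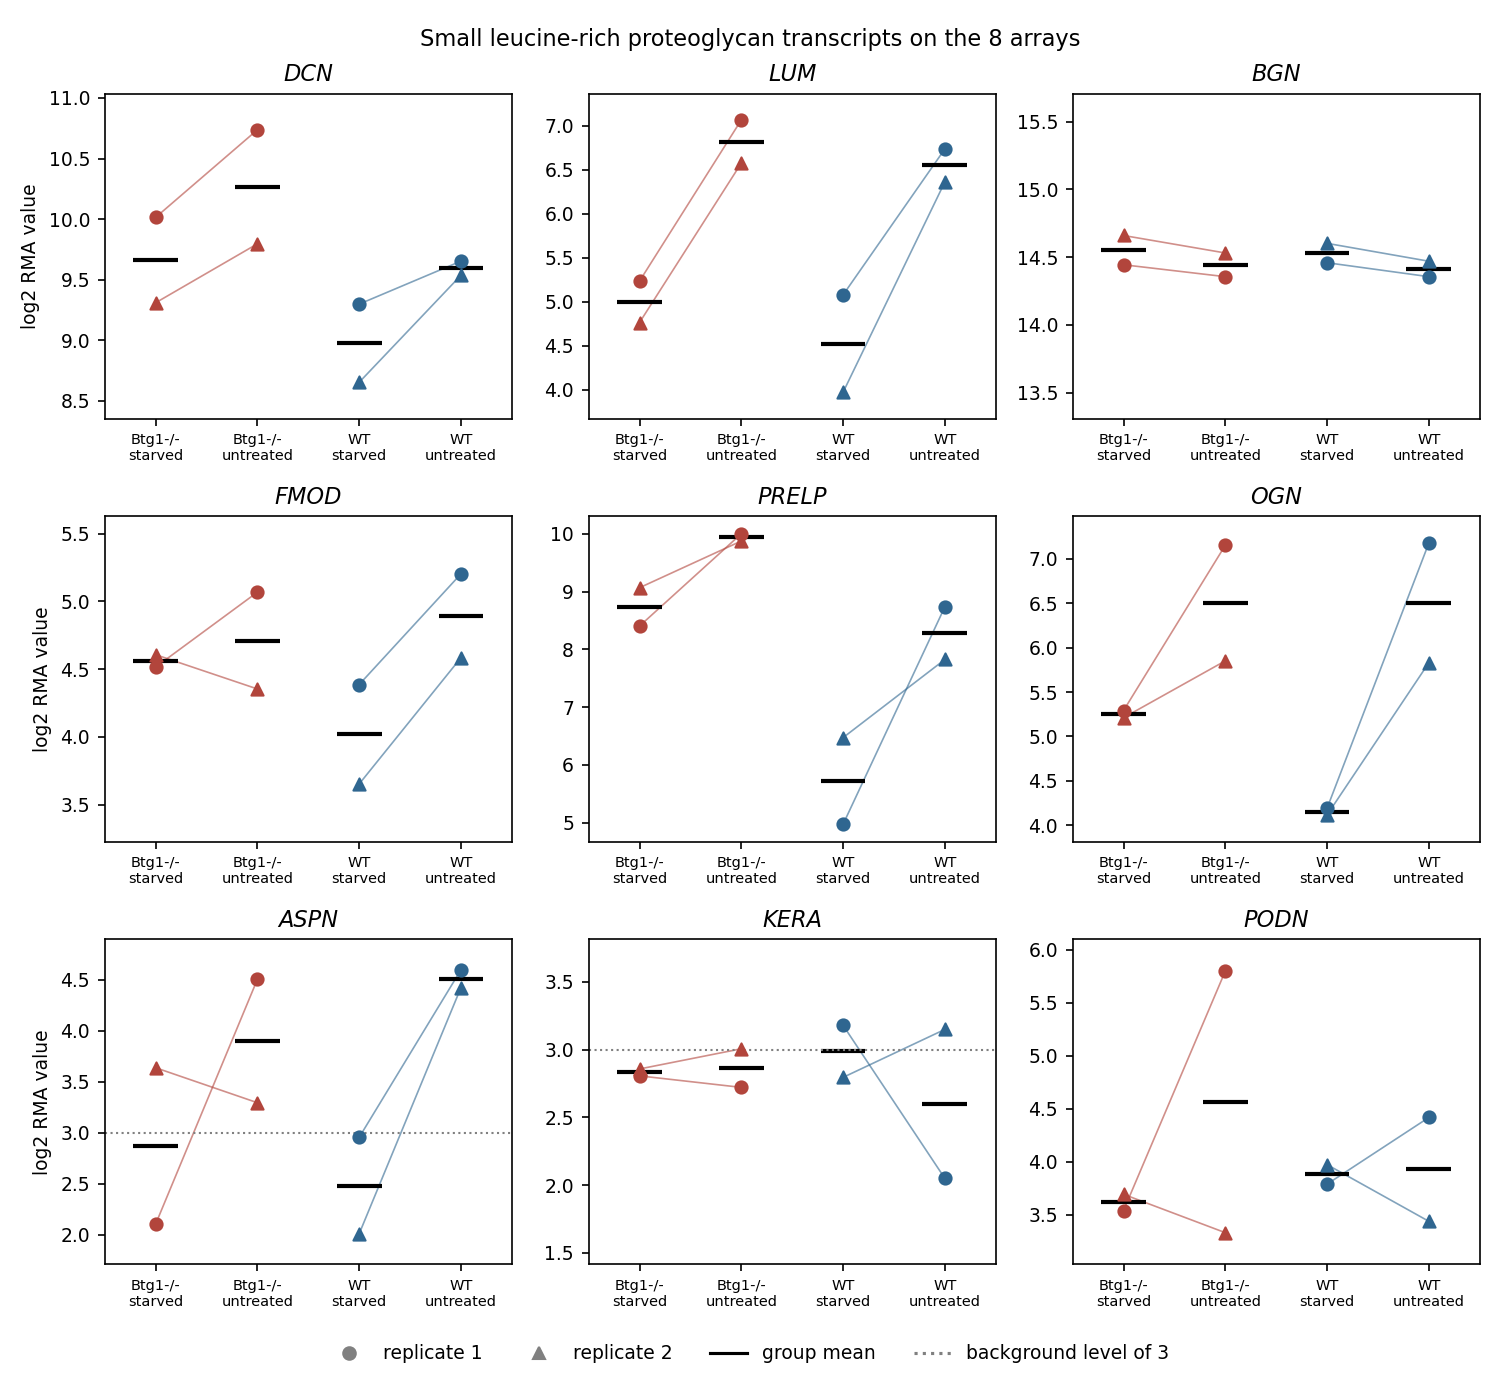
Each panel plots the log2 value of 1 gene on the y axis for the 4 groups on the x axis. Circles and triangles are replicates 1 and 2, thin lines join arrays of the same number within a genotype, black bars are group means, the dotted line is the background level of 3, and the y axes differ between panels. *PRELP* spans 4.97 to 10.00, while *BGN* stays between 14.36 and 14.66.

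PRELP, a heparin-binding protein that ties basement membranes to the collagen beneath them, covered the widest range of the 9 genes. Its log2 values were 8.41 and 9.07 in starved *Btg1*-/- cells, 10.00 and 9.88 in untreated *Btg1*-/- cells, 4.97 and 6.47 in starved WT cells and 8.74 and 7.83 in untreated WT cells. Starved and untreated arrays did not overlap in either genotype. The group means ± SD were 8.74 ± 0.47 in starved *Btg1*-/- cells, 9.94 ± 0.09 in untreated *Btg1*-/- cells, 5.72 ± 1.06 in starved WT cells and 8.28 ± 0.65 in untreated WT cells (n = 2 each), and the group means spanned 4.22 on the log2 scale. In this order of levels, starved *Btg1*-/- and untreated WT cells were neighbours whose arrays overlapped. In WT cells PRELP was 5.90-fold lower after starvation (log2 difference -2.56, SE 0.45, adjusted p = 0.00258). In *Btg1*-/- cells the log2 difference was -1.20 (SE 0.45, adjusted p = 0.108) and did not pass the threshold. Between same-numbered arrays, PRELP differed by -1.60 and -0.81 in *Btg1*-/- cells and by -3.77 and -1.35 in WT cells. The size of its decrease thus varied more between the WT pairs than it did between the *Btg1*-/- pairs.

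Osteoglycin, also called mimecan and first known from bone, was lower in starved WT cells as well. OGN was at 5.29 and 5.21 in starved *Btg1*-/- cells, 7.15 and 5.85 in untreated *Btg1*-/- cells, 4.19 and 4.12 in starved WT cells and 7.18 and 5.83 in untreated WT cells. The starved pairs were close together and the untreated pairs wide apart, with replicate 1 the higher in both genotypes. It was 5.09-fold lower in starved WT cells (log2 difference -2.35, SE 0.49, adjusted p = 0.00644), and in starved *Btg1*-/- cells the log2 difference was -1.25 (SE 0.49, adjusted p = 0.123). The starved array held less OGN in all 4 same-numbered pairs, with log2 differences of -1.86 and -0.64 in *Btg1*-/- cells and -2.98 and -1.71 in WT cells.

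Lumican, a keratan sulfate proteoglycan that orders the collagen of cornea and skin, was the member called lower in both genotypes. LUM was at 5.24 and 4.77 in starved *Btg1*-/- cells, 7.06 and 6.57 in untreated *Btg1*-/- cells, 5.08 and 3.97 in starved WT cells and 6.74 and 6.36 in untreated WT cells. Every starved array lay below every untreated array of either genotype. It was 3.53-fold lower in starved *Btg1*-/- cells (log2 difference -1.82, SE 0.38, adjusted p = 0.012) and 4.06-fold lower in starved WT cells (log2 difference -2.02, SE 0.38, adjusted p = 0.00391). The *Btg1*-/- call was lost without untreated *Btg1*-/- replicate 1 (adjusted p = 0.0676) and without starved *Btg1*-/- replicate 2 (adjusted p = 0.0829), where the log2 differences were -1.57 and -1.58.

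Asporin, which lacks a glycosaminoglycan chain and binds TGF-β, was near background after starvation. ASPN was at 2.10 and 3.64 in starved *Btg1*-/- cells, 4.50 and 3.29 in untreated *Btg1*-/- cells, 2.95 and 2.01 in starved WT cells and 4.60 and 4.42 in untreated WT cells. Both starved WT arrays were below 3, so its decrease in WT cells has only a bound and was at least 2.85-fold (adjusted p = 0.0323, measured log2 difference -2.03, SE 0.59). In *Btg1*-/- cells the starved and untreated arrays overlapped, since ASPN was lower after starvation in replicate 1 and higher in replicate 2 (log2 differences of -2.40 and 0.34). The WT call of ASPN was lost when any 1 of the 4 WT arrays was left out, with an adjusted p of 0.0545 without starved WT replicate 1, 0.196 without starved WT replicate 2, 0.133 without untreated WT replicate 1 and 0.101 without untreated WT replicate 2. The WT call of OGN was also lost without untreated WT replicate 1 (log2 difference -1.68, adjusted p = 0.0562).

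Decorin, the family's main regulator of collagen I fibrils, moved less. DCN was at 10.01 and 9.31 in starved *Btg1*-/- cells, 10.74 and 9.80 in untreated *Btg1*-/- cells, 9.30 and 8.65 in starved WT cells and 9.65 and 9.54 in untreated WT cells. It was lower in the starved member of all 4 same-numbered pairs, by log2 differences of -0.72 and -0.49 in *Btg1*-/- cells and -0.36 and -0.88 in WT cells. The mean log2 differences of -0.61 in *Btg1*-/- cells (SE 0.32, adjusted p = 0.258) and -0.62 in WT cells (SE 0.32, adjusted p = 0.208) did not pass. They did in a fit that pairs same-numbered arrays of a genotype (replicate block) (adjusted p = 0.0138 in *Btg1*-/- cells and 0.00812 in WT cells), and OGN then passed in *Btg1*-/- cells too (adjusted p = 0.0479), which brought the members called lower to 3 of 8 in *Btg1*-/- cells and 5 of 8 in WT cells. These gains depended on a fixed block: with the same pairs as a random block, DCN had an adjusted p of 0.168 in *Btg1*-/- cells and 0.132 in WT cells, and OGN had 0.0815 in *Btg1*-/- cells. The fixed block also raised the number of all rows called lower. It went from 919 to 1197 of 12691 in *Btg1*-/- cells and from 1471 to 1736 in WT cells.

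The other members gave no call. Fibromodulin, a collagen-binding member of class II, had FMOD values of 4.52 and 4.61 in starved *Btg1*-/- cells, 5.07 and 4.35 in untreated *Btg1*-/- cells, 4.39 and 3.65 in starved WT cells and 5.20 and 4.58 in untreated WT cells. Its starved and untreated arrays did not overlap in WT cells (log2 difference -0.87, SE 0.40, adjusted p = 0.148). Podocan, first found in kidney podocytes, had PODN values of 3.54 and 3.69 in starved *Btg1*-/- cells, 5.80 and 3.33 in untreated *Btg1*-/- cells, 3.79 and 3.97 in starved WT cells and 4.42 and 3.44 in untreated WT cells. Its highest value came from 1 untreated *Btg1*-/- array, and without that array its log2 difference in *Btg1*-/- cells turned to 0.28, against -0.95 with it. Without untreated *Btg1*-/- replicate 2 PODN passed, with a log2 difference of -2.18 (adjusted p = 0.0227). Keratocan, a protein of the corneal stroma, had KERA values of 2.05 to 3.18 over the 8 arrays.

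Biglycan, a class I member like decorin that also acts as a danger signal when it is set free, did not share the decrease. BGN was at 14.44 and 14.66 in starved *Btg1*-/- cells, 14.36 and 14.53 in untreated *Btg1*-/- cells, 14.46 and 14.60 in starved WT cells and 14.36 and 14.47 in untreated WT cells. The log2 difference was 0.11 in *Btg1*-/- cells (95% interval -0.12 to 0.34) and 0.12 in WT cells (-0.12 to 0.35), and in all 4 same-numbered pairs the starved array was higher by 0.09 to 0.13. The highest value on each array was 14.93, so that BGN lay near the upper end of the scale, and how far such rows are compressed was not tested.

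**Figure D2:**
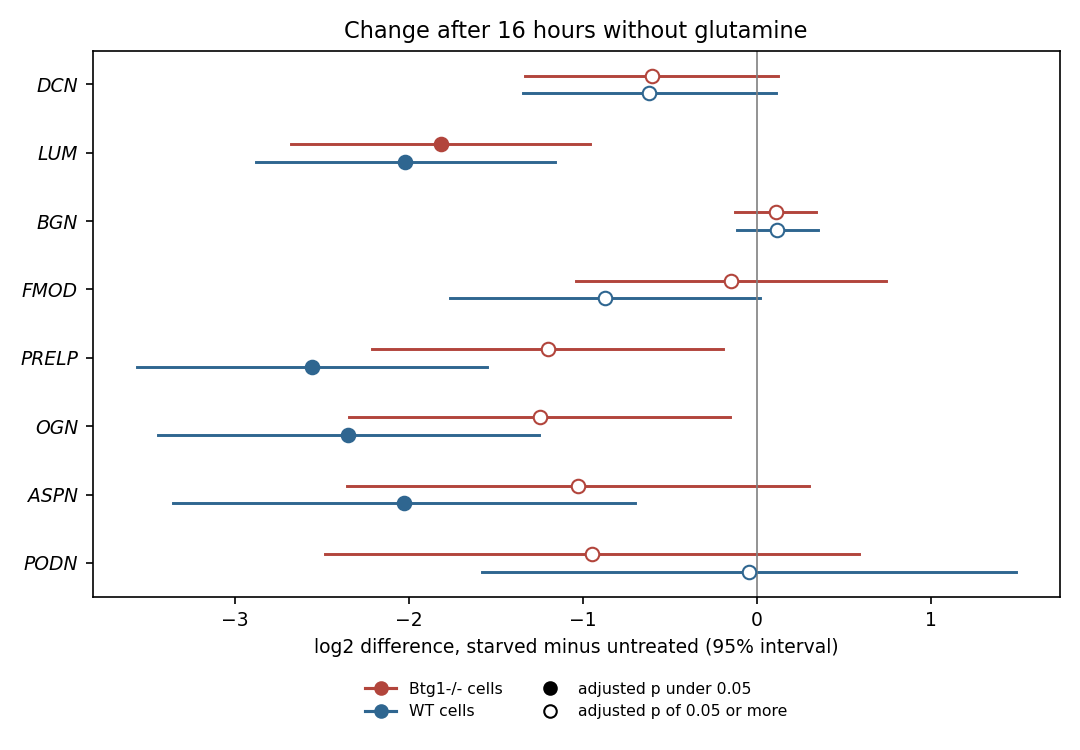
Points are log2 differences of starved minus untreated cells on the x axis for the 8 genes tested, with 95% intervals from the model, not adjusted for the number of rows, as bars. Within each gene the *Btg1*-/- cells stand above the WT cells, and filled points have an adjusted p under 0.05. *LUM* is filled in both genotypes, *PRELP*, *OGN* and *ASPN* in WT cells, and both *BGN* intervals lie between -0.12 and 0.35.

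Counted by arrays that did not overlap, 3 of 8 members (LUM, PRELP and OGN) had both starved arrays below both untreated arrays in *Btg1*-/- cells, where 25.5% of all rows did. In WT cells 6 of 8 members did so (DCN, LUM, FMOD, PRELP, OGN and ASPN), where 29.6% of all rows did. Without both arrays of *Btg1*-/- replicate 1, each *Btg1*-/- group held 1 array, and LUM had a log2 difference of -1.81 in *Btg1*-/- cells. Without both arrays of WT replicate 2, each WT group held 1 array. The measured log2 differences in WT cells were then -3.767 for PRELP, -2.985 for OGN, -1.655 for LUM and -1.645 for ASPN. In both settings fewer members were called in the genotype that lost arrays, and fewer of all rows were called there as well.

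Whether the genotypes differed in their response was tested as the difference of the 2 log2 differences. It gave 0 of 8 members and 0.0% of all rows at an adjusted p under 0.05 from limma, with 815 of 12691 rows at an unadjusted p under 0.05. PRELP had the largest value of the 8, at 1.36 (SE 0.64, 95% interval -0.07 to 2.78, adjusted p = 0.775), OGN had 1.10 (SE 0.69, adjusted p = 0.842), and LUM and DCN had 0.20 and 0.01. A weaker decrease in *Btg1*-/- cells was therefore not shown for any member, and the interval of PRELP includes 0.

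The places of these genes put several of them side by side. In the RefSeq gene order of the mouse assembly GRCm38.p6, *Dcn*, *Lum*, *Kera* and *Epyc* follow each other on chromosome 10, *Optc*, *Prelp* and *Fmod* on chromosome 1, and *Ecm2*, *Aspn*, *Omd* and *Ogn* on chromosome 13, while *Bgn* lies on chromosome X and *Podn* on chromosome 4. Of the rest of the family, 8 of 9 listed genes had a row and 6 could be tested. Opticin (*Optc*), the neighbour of *Prelp*, was at least 1.99-fold lower in starved WT cells (adjusted p = 0.0372), where its mean of 2.40 was under background against 3.99 in untreated WT cells. In *Btg1*-/- cells it averaged 2.23 starved and 3.81 untreated (adjusted p = 0.0533). No other of these genes was called in either genotype, where 11.6% of all rows were called lower in starved WT cells and 7.24% in starved *Btg1*-/- cells.

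The stretches around the transcription starts are shown for 3 members that were lower in starved WT cells and for *Bgn*, which was not. They are RefSeq sequences of GRCm38.p6, from 250 bases before to 50 bases after the start, and the table held 7 of the 9 genes. Capitals mark a match, on either strand, to any of 5 short motifs. The TATA box was searched as TATAAA. The GC box was searched as GGGCGG. The CCAAT box was searched by its own letters. The AP-1 site was searched as TGANTCA. The composite site of C/EBP and ATF factors was searched as TGATGNAA.
Prelp (chr1:133921352-133921651, minus strand): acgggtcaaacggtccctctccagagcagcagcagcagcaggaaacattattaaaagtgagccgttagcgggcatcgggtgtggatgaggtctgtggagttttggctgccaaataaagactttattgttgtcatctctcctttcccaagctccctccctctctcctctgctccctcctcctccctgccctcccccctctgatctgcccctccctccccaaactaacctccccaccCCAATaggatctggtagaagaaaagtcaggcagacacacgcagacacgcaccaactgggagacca
Ogn (chr13:49607765-49608064, plus strand): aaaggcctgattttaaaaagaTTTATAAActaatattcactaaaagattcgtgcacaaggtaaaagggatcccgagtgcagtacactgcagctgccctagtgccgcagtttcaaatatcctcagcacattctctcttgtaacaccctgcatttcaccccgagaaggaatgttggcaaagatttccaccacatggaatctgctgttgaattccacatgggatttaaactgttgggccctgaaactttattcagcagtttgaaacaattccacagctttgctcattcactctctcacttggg
Aspn (chr13:49544193-49544492, plus strand): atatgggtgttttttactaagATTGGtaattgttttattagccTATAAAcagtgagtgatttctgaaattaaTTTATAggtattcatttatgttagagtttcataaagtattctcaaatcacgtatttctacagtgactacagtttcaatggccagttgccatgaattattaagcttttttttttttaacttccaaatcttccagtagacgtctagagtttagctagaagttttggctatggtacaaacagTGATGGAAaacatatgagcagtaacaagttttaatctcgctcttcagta
Bgn (chrX:73483351-73483650, plus strand): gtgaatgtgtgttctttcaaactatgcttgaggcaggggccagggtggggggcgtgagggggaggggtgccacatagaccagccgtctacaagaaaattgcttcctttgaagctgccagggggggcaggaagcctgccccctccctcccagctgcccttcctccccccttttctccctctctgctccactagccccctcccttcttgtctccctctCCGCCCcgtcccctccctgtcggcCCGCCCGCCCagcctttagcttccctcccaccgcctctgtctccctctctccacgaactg
*Prelp* holds 1 CCAAT box at -15 and *Ogn* a pair of overlapping TATA boxes on opposite strands at -229 and -227. *Aspn* holds TATA boxes at -207 and -178, a CCAAT box at -229 and a composite site at 2, counted from 1 at the first transcribed base. *Bgn* has 3 GC boxes, at -34, -10 and -6, of which the last pair overlap by 2 bases. Of all 32851 promoters in the table, 13.6% hold a TATA box, 35.7% a GC box, 37.4% a CCAAT box, 7.8% an AP-1 site and 4.0% a composite site. The GC content was 55.3% for *Prelp*, 42.3% for *Ogn*, 31.0% for *Aspn* and 63.7% for *Bgn*, where the quartiles of all promoters were 45.7%, 52.7% and 61.7%. These matches describe the letters only, and binding was not measured.

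Between the genotypes, PRELP was the member that stood out. In starved cells it was 8.08-fold higher in *Btg1*-/- than in WT cells (log2 difference 3.01, SE 0.45, adjusted p = 0.0187), and both *Btg1*-/- arrays, at 8.41 and 9.07, lay above both WT arrays, at 4.97 and 6.47. It was the only 1 of 8 members called higher there, where 1.61% of all rows were. In untreated cells PRELP was again above WT on both arrays, at 10.00 and 9.88 in *Btg1*-/- cells against 8.74 and 7.83 in WT cells, but the log2 difference of 1.66 did not pass (3.16-fold, SE 0.45, adjusted p = 0.108). No member was called in untreated cells, where 0.386% of all rows were called higher. The call in starved cells was lost without starved *Btg1*-/- replicate 1 (log2 difference 3.35, adjusted p = 0.0802), without starved *Btg1*-/- replicate 2 (2.68, adjusted p = 0.093) and without starved WT replicate 1 (2.26, adjusted p = 0.0964). The macrophage markers, too, were higher in *Btg1*-/- cells, with medians of 6.12 to 8.19 against 5.15 to 5.77 in WT cells, and their part in the result was not tested. Among starved *Btg1*-/- cells the array with the higher macrophage median, 7.71, had the lower PRELP value, 8.41, and the array with 6.12 had 9.07. Among untreated *Btg1*-/- cells the order was the other way, with a PRELP value of 10.00 beside a macrophage median of 8.19 and of 9.88 beside 6.36. An order of 2 arrays cannot show a relation, and macrophage markers and genotype cannot be told apart here. Without both arrays of *Btg1*-/- replicate 1, the culture with the highest macrophage medians, the log2 difference of PRELP in starved cells was 3.35. That value rests on the 1 starved *Btg1*-/- array left, at 9.07, the higher of its pair, so that the difference had to grow. The *Btg1*-/- arrays that remained still had macrophage medians of 6.12 and 6.36, against 5.15 to 5.77 in WT cells, so that leaving these arrays out does not make the genotypes alike in macrophage markers. Without both arrays of WT replicate 2, the culture with *Eif2s3y*, the log2 difference of PRELP in starved cells was 3.76. It rests on the 1 starved WT array left, at 4.97, the lower of its pair, so that this difference, too, had to grow. The part of sex was not tested.

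**Figure D3:**
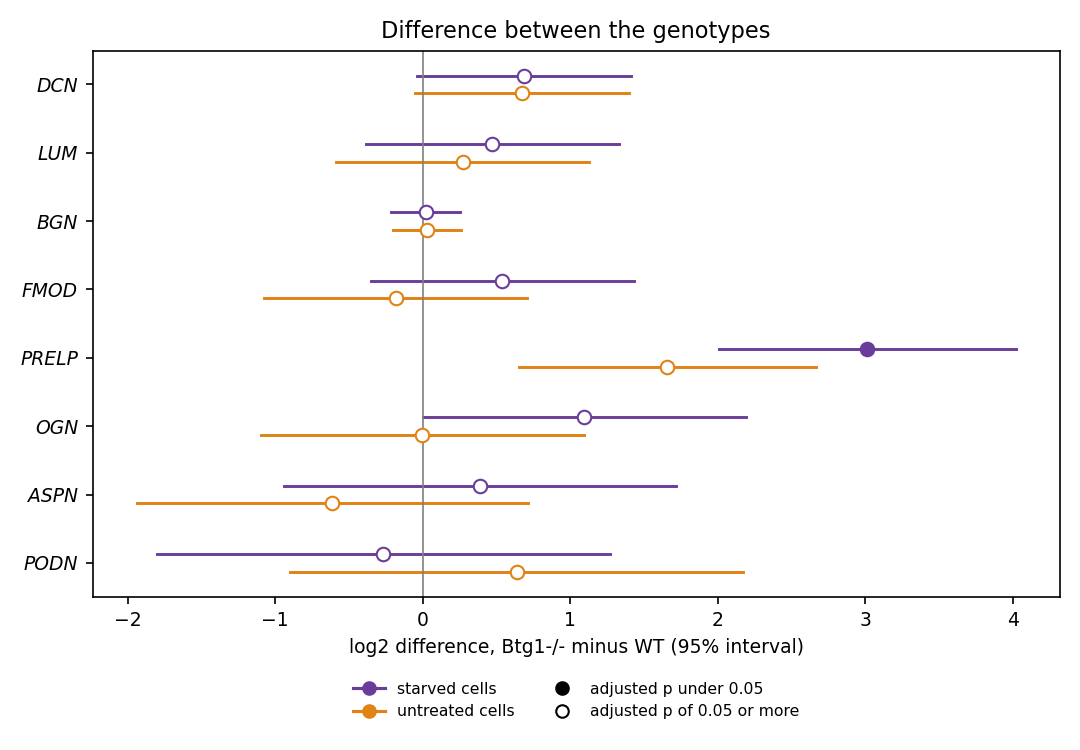
Points are log2 differences of *Btg1*-/- minus WT cells on the x axis for the 8 genes tested, with 95% intervals from the model, not adjusted for the number of rows, as bars. Starved cells stand above untreated cells within each gene, and filled points have an adjusted p under 0.05. *PRELP* in starved cells, at 3.01, is the only filled point, and *ASPN* in starved cells compares means that are both under the background level of 3.

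The other members differed less between genotypes. DCN had similar log2 differences in starved (0.69, SE 0.32, adjusted p = 0.327) and untreated cells (0.67, SE 0.32, adjusted p = 0.325), and its arrays did not overlap in either. OGN had 1.10 in starved cells (SE 0.49, adjusted p = 0.297) and 0.00 in untreated cells (SE 0.49, adjusted p = 0.999). Its untreated means were 6.50 in both genotypes, and its starved means were 5.25 in *Btg1*-/- cells and 4.15 in WT cells. FMOD and LUM had log2 differences of 0.54 and 0.47 in starved cells, and PODN and BGN had -0.27 and 0.02. ASPN averaged below 3 in both starved groups, so that no difference is given for it there. Both *Btg1*-/- arrays were above both WT arrays for 4 of 8 members in starved cells (DCN, FMOD, PRELP and OGN), where 22.1% of all rows were, and for 2 of 8 in untreated cells (DCN and PRELP), where 22.6% of all rows were. They were below both WT arrays for PODN alone in starved cells, where 27.3% of all rows were, and for no member in untreated cells, where 25.3% were. The median log2 difference of the 8 members was 0.51 in starved and 0.15 in untreated cells, against -0.03 and -0.02 over all rows.

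DCN, LUM and KERA lie on the chromosome of the targeted gene. In the RefSeq order 1 protein-coding gene stands between *Btg1* and *Dcn*, and *Dcn* and *Lum* were the nearest tested genes on that side. Of the 15 nearest tested genes on each side of *Btg1*, 0 of 30 were called higher in *Btg1*-/- cells. Of all rows, 1.61% were called higher in starved and 0.386% in untreated cells. In starved cells 2 of the 30 were lower, *Ndufa12* at -0.49 (SE 0.11, adjusted p = 0.049) and *Tmpo* at -0.81 (SE 0.14, adjusted p = 0.0252), where 0.638% of all rows were. In untreated cells 1 of the 30 was lower, *Tmpo* at -0.77 (SE 0.14, adjusted p = 0.0474), where 0.276% of all rows were. The medians of the 30 were -0.11 and -0.04 in starved and untreated cells, and DCN and LUM were above them in both conditions.

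**Figure D4:**
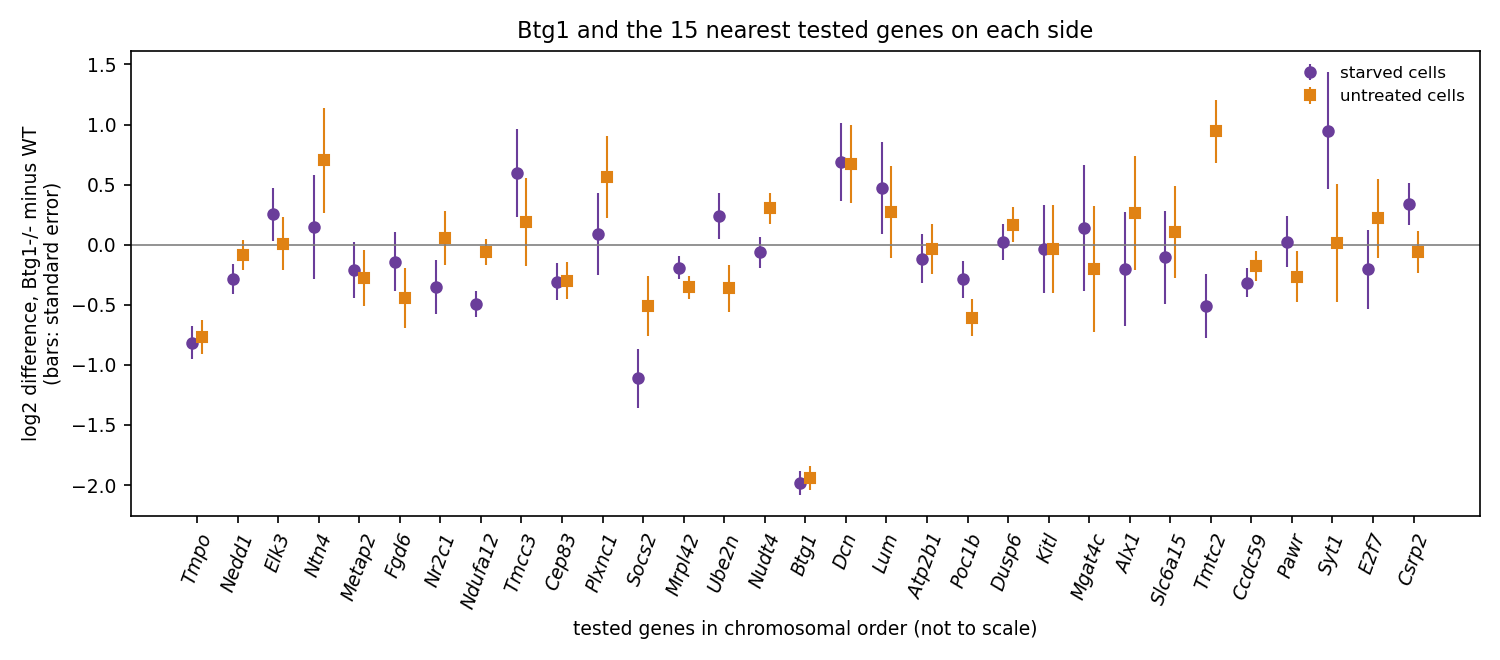
The y axis gives the log2 difference of *Btg1*-/- minus WT cells with its standard error, and the x axis the tested genes in chromosomal order around *Btg1*, equally spaced. Circles are starved and squares untreated cells. *Btg1* is at -1.98 and -1.94, and *Dcn* and *Lum* beside it lie above 0 in both conditions without passing the threshold.

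The genes that make, hold or cut these proteoglycans were counted from lists by function. Over all rows tested, 8.44% were called higher and 7.24% lower in starved *Btg1*-/- cells, and 13.1% were called higher and 11.6% lower in starved WT cells. Of 16 genes tested for the synthesis of chondroitin and dermatan sulfate chains, 0 rose and 2 fell in starved *Btg1*-/- cells, and 2 rose and 4 fell in starved WT cells. *Chst12*, which adds sulfate to these chains, fell by 2.77 on the log2 scale in *Btg1*-/- cells (SE 0.40, adjusted p = 0.00204) and by 3.94 in WT cells (SE 0.40, adjusted p = 0.000151). *Chst7*, another sulfotransferase of these chains, was lower in *Btg1*-/- than in WT cells when untreated (log2 difference -1.02, SE 0.14, adjusted p = 0.0192), where 0.276% of all rows were called lower. It was the only 1 of the 16 called between the genotypes. Of 6 genes tested for keratan sulfate, 1 fell in *Btg1*-/- cells and 2 fell in WT cells. *Chst1*, the sulfotransferase for galactose in keratan sulfate, fell by 1.45 in *Btg1*-/- cells (SE 0.21, adjusted p = 0.00186) and by 2.54 in WT cells (SE 0.21, adjusted p = 5.09e-05).

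Several of the collagens that these proteoglycans bind fell as well. Of 9 fibrillar collagen genes tested, 4 fell in starved *Btg1*-/- cells and 5 in starved WT cells, where 7.24% and 11.6% of all rows did. *Col1a1* had log2 differences of -0.82 in *Btg1*-/- cells (SE 0.14, adjusted p = 0.00401) and -1.48 in WT cells (SE 0.14, adjusted p = 8.73e-05), and *Col3a1* had -1.15 in *Btg1*-/- cells (SE 0.26, adjusted p = 0.0175) and -2.25 in WT cells (SE 0.26, adjusted p = 0.000294). Among starved cells both were higher in *Btg1*-/- than in WT, by 0.89 for *Col1a1* (adjusted p = 0.0209) and 1.22 for *Col3a1* (adjusted p = 0.049), and they were the 2 of 9 collagens called, where 1.61% of all rows were. The lysyl oxidases, which cross-link collagen, had 1 of 4 lower in *Btg1*-/- cells and 2 of 4 in WT cells, against the same shares of all rows. *Loxl3* was lower in both, by log2 differences of -1.82 in *Btg1*-/- cells (adjusted p = 0.0403) and -2.11 in WT cells (adjusted p = 0.0144).

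Among 15 growth factors and receptors that bind the family, 3 fell in starved *Btg1*-/- cells and 4 in starved WT cells, where 7.24% and 11.6% of all rows did. *Tgfb2* and *Tgfb3*, which decorin, biglycan and fibromodulin are known to bind, had log2 differences of -1.41 and -1.79 in *Btg1*-/- cells and -2.12 and -2.72 in WT cells. In starved cells *Tgfb2* (1.32, adjusted p = 0.0296) and *Thbs1* (1.14, adjusted p = 0.0101) were among 3 of 15 called higher in *Btg1*-/- than in WT, where 1.61% of all rows were. Of 7 proteases tested that cut these proteins, 2 fell in *Btg1*-/- and 4 in WT cells, against 7.24% and 11.6% of all rows. Between the starved genotypes 2 were higher in *Btg1*-/- cells, *Adamts4* at 1.51 (adjusted p = 0.0144) and *Mmp2* at 0.87 (adjusted p = 0.049), where 1.61% of all rows were. Of 14 other proteoglycan core proteins, 2 rose and 4 fell in *Btg1*-/- cells, where 8.44% of all rows rose and 7.24% fell, and 1 rose and 5 fell in WT cells, where 13.1% of all rows rose and 11.6% fell. *Sdc4*, a cell surface heparan sulfate proteoglycan, had log2 differences of -0.78 in *Btg1*-/- and -1.45 in WT cells, and *Gpc1*, which is anchored in the membrane by a lipid, rose by 0.47 in *Btg1*-/- cells (adjusted p = 0.0149) and by 0.65 in WT cells (adjusted p = 0.00171). Between the genotypes *Sdc4* was lower in untreated *Btg1*-/- cells (log2 difference -0.75, adjusted p = 0.0398) and *Sdc3* higher in starved *Btg1*-/- cells (0.59, adjusted p = 0.0348), and no other of the 14 was called. Of all rows, 0.276% were called lower in untreated and 1.61% higher in starved *Btg1*-/- than in WT cells.

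Rows with the most similar pattern were sought for each member whose group means spanned at least 1 on the log2 scale, by the root mean square difference of gene-centred log2 values over the 8 arrays. Nearest to PRELP were *Nrep* (0.47), *Tppp3* (0.52) and *Itgbl1* (0.55), all of them lowest in starved WT cells as PRELP was. Nearest to LUM were *Tbxa2r* (0.27), *Des* (0.28) and *Olfml2b* (0.28), and nearest to OGN *Ednra* (0.25), *6430411K18Rik* (0.26) and *Olfml2b* (0.27), so that *Olfml2b* stood near both. Nearest to DCN were *Slc17a9* (0.12), *Prkg1* (0.17) and *Notch3* (0.20), and nearest to ASPN the row EAR4 (0.44), *Cdh3* (0.45) and *Ada* (0.45). Of these, EAR4 lay between 1.44 and 3.42 and *Slc17a9* between 2.24 and 4.39, near the background level of 3. Among the pairs of members that held at least 1 of these 5 genes, the nearest was DCN and FMOD, at 0.39, followed by LUM and OGN, at 0.49. The 8 arrays were taken to come from 4 cultures, and this likeness is a description without a test.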

How the data were processed

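RNA of MEFs was measured on 8 Illumina mouse bead arrays, 2 in each of 4 groups. The authors normalized the array data with the RMA method in ArrayStar and deposited log2 values per named row, and the submitters' processing notes name GenomeStudio 2011.1. A second deposited table holds group means and the authors' fold ratios and was not used. Bead counts, detection p-values and single probes were not used here, so the number of arrays limits the precision. Row names were matched to RefSeq genes of GRCm38.p6, 14305 by symbol and 2706 by synonym of 18132.

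The 12691 rows in which some group averaged at least 3 were fitted with limma 3.58.1 in R 4.3.3. The model held 4 group means and an intensity trend, with 5.48 prior and 4 residual degrees of freedom. P-values are two-sided and Benjamini-Hochberg adjusted over these rows. The script was tested on simulated data. The replicate number comes from the labels. Deviations from group means correlated at 0.243 between same-numbered arrays in *Btg1*-/- and 0.118 in WT cells. Across genotypes, where no culture can be shared, they correlated at 0.077 and 0.105, so the WT value alone does not show pairing. *Eif2s3y* was at 9.81 untreated and 9.49 starved in WT replicate 2, and at 2.79 and 3.25 in WT replicate 1. The numbers were taken to pair arrays of 1 culture within a genotype, which is an assumption. The p-values rest on the spread between arrays within groups, pooled over the 4 groups and drawn toward the intensity trend over all rows. The main model held no term for culture, so same-numbered arrays were treated as independent.

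Members, lists and tests were chosen with earlier results of these data known. All members are named, with up to 4 genes per list and comparison (those past the threshold first, then by size), called neighbours of *Btg1*, and the 3 rows most like each member whose group means span at least 1. A gene whose mean is below 3 in the lower group is given as a bound, with arrays below 3 set to 3. Alternatives were other filters, scalings, spread models, thresholds, replicate blocks, a t-test per row and arrays left out.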

Additional observations from a re-analysis of the deposited data

How the results depend on the processing

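Of the members' values under the alternatives, 498 kept their direction and their side of the threshold, 26 were no longer past it, 9 were newly past it and 5 turned in sign. Members called lower in starved *Btg1*-/- cells numbered 1. With the replicate block as a fixed effect within genotype they numbered 3, with only the arrays of the comparison or without WT replicate 2 at both times 2, and with no intensity trend, the t-test per row, an adjusted p under 0.01 or without *Btg1*-/- replicate 1 at both times 0. In WT cells the 4 members called became 0 under the t-test per row and 2 without WT replicate 2 at both times. The 1 member called higher in *Btg1*-/- cells under starvation became 0 with no intensity trend, the t-test per row, an adjusted p under 0.01 or without *Btg1*-/- replicate 1 at both times. In untreated cells 0 became 1, PRELP, under the FC rule of 3 between group means, which has no test. Leaving out 1 array at a time gave 0 to 3 members in *Btg1*-/- cells, 2 to 4 in WT cells and 0 to 1 between starved genotypes. The random block, and the block with numbers shared across genotypes, changed no member count. With 1 array left out, PODN in *Btg1*-/- cells ranged between -2.18 and 0.28, positive without untreated replicate 1, and LUM between starved genotypes ranged between -0.079 and 1.03, negative without starved WT replicate 2. Without both arrays of *Btg1*-/- replicate 1, PODN was at 0.36 and ASPN at 0.34, and without both of WT replicate 2, LUM was again at -0.079. The cause was not tested, except that settings with fewer arrays leave fewer degrees of freedom. PRELP between starved genotypes ranged over 21 alternatives from 2.26 to 3.76 with an adjusted p of 0.00602 to 0.464, and passed in 14. Over all rows, 1990 were called in *Btg1*-/- cells, 3138 in WT cells, 285 between starved and 84 between untreated genotypes. With 1 array left out these were 1012 to 1785, 1829 to 3289, 9 to 444 and 1 to 500, and under the other settings 1 to 2486, 1 to 3628, 0 to 572 and 0 to 424, with 1 or 0 under the t-test per row.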
